A study of Mus musculus with 24 samples.

Results

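T-PNU and T-DM1 are antibody-drug conjugates that carry the same antibody, trastuzumab, and release unlike poisons inside a cell. The comparison described here took the 12 of 24 expression profiles that came from tumors given 1 of these conjugates, 6 per conjugate, and all 16996 genes of the deposited table. Group membership followed the treatment named in the sample labels and used no measured value. The tumors grew from EMT6-hHER2 cells, a murine breast cancer line made to express human HER2, the receptor that trastuzumab binds, and sorted from a single cell, so that every tumor stems from 1 clone.

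All 4 groups were female wild-type Balb/c mice aged 10 to 12 weeks with EMT6-hHER2 tumors in the mammary fat pad. Mice given a treatment received it once intravenously, when tumors measured about 80 mm3. The T-PNU group received 1 mg/kg of trastuzumab joined by sortase to a derivative of the anthracycline PNU-159682. The T-DM1 group received 15 mg/kg of trastuzumab loaded with the maytansinoid DM1. The remaining 12 samples came from mice that were untreated or received unconjugated trastuzumab at 20 mg/kg, and their levels are given beside the comparison without a test. Tumors were taken on day 10, leukocytes were enriched with magnetic beads against CD45, and each sample is 1 RNA library. Payload, linker and dose all differ between the conjugates. By the paper's methods T-PNU tumors were smaller at harvest than at treatment, and in its separate growth experiments tumors kept growing under T-DM1. Tumor size at harvest is not among the values analysed here. Payload, linker, dose and tumor size cannot be told apart from each other.

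An antibody-drug conjugate is bound by its receptor, taken into the cell and broken down in lysosomes, which sets the payload free. Anthracyclines of the PNU kind insert into DNA and damage it, a form of stress read by the p53 pathway. Maytansinoids bind tubulin and stop microtubules from growing, so that dividing cells arrest in mitosis. The profiles are of the leukocytes around the tumor cells rather than of the tumor cells that the antibody recognises, plus whatever other cells came through the bead enrichment.

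Values are log2 normalised expression, which ran from 1.13 to 19.7 over the table, with sample medians of 8.73 to 8.87. The deposited values hold no read counts, so the depth of each library is unknown and no counting interval can be given. Differences are T-PNU minus T-DM1 on the log2 scale, where 1 is a 2-fold difference if the values are plain logarithms, and were tested with limma over the 12 samples. The transformation is not named. A log that pulls values toward each gene's mean, as some do, would make the differences and the threshold of 1 used below smaller than the folds of reads. A gene is called higher or lower at an adjusted p under 0.05, and "strictly" called at an adjusted p under 0.01 and an absolute log2 difference above 1. Groups of 6 are given by their lowest, median and highest value.

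Principal component analysis of the 12 samples over their 1000 most variable genes put 73.3% of the variance on the first component. Of the T-PNU samples, named by the code that opens each sample title, D2, B2, H1 and C2 lay at 12.99 to 45.81, and T-DM1 samples lay at -30.95 to 5.18. T-PNU samples G1 and A2, at -18.1 and -8.01, fell within the T-DM1 range, and C2 lay farthest from the rest. T-PNU values also spread more, with a median SD over genes of 0.195 against 0.15 in T-DM1, and the SD was larger in T-PNU for 69.5% of genes. The codes run from G1 to D2 for T-PNU and from C3 to H3 for T-DM1. The labels do not say what they stand for, and if they mark an order or position of processing, it cannot be told apart from treatment.

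The CD45-enriched samples of T-PNU tumors held less RNA of cholesterol synthesis, glycolysis and collagen genes than those of T-DM1 tumors, and more RNA of natural killer cell, Fc receptor, complement C1q and interferon-gamma response genes. Lower calls in the first 3 lists numbered 22, 22 and 21, or 21, 22 and 21 with all 24 samples in the fit. Higher calls in the natural killer cell, Fc receptor and interferon-gamma lists numbered 16, 14 and 16. They became 11, 7 and 9 with all 24 samples in the fit. Relative to 12 genes that all leukocytes use, a scaling described below, they became 1, 1 and 0. Strict calls were 35 higher genes, 0.206% of the 16996 tested, and 289 lower genes, 1.7%. For 309 of these 324 genes the groups did not overlap, which is no added support, since the same values chose the genes. At an adjusted p under 0.05 the calls were 2621 higher (15.4%) and 2960 lower (17.4%), and these shares are the background for every list below. In 926 genes (5.45%) every T-PNU value lay above every T-DM1 value, and in 1314 (7.73%) every T-PNU value lay below. Strictly lower genes numbered 121 to 187 when T-DM1 sample D3, E3, F3 or G3 or T-PNU sample H1 or C2 was left out, with the lowest count without F3, and 441 without G1. Strictly higher genes numbered 21 without F3 or H1.

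**Figure D1:**
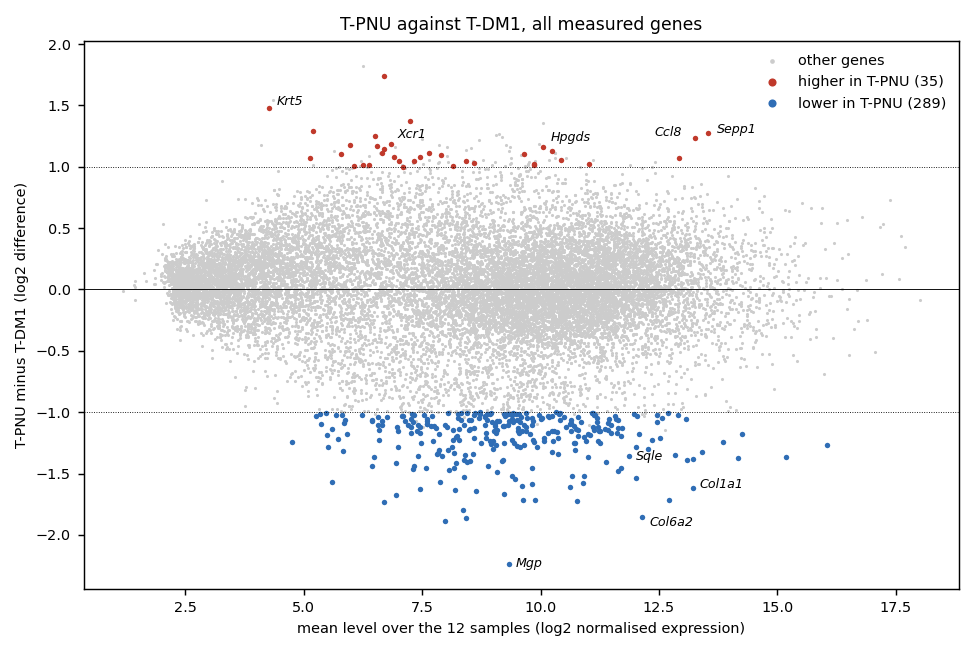
Each point is 1 of the 16996 genes, with its mean log2 normalised expression over the 12 samples on the x axis and the T-PNU minus T-DM1 log2 difference on the y axis. Coloured points are the 35 genes strictly higher (red) and the 289 strictly lower (blue) in T-PNU, and dotted lines mark differences of -1 and 1. The lower genes reach further from 0, down to Mgp at -2.23, and more often lie at high expression levels.

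Among strictly higher genes with a level above the median of all genes, the largest difference was in Sepp1 (ENSMUSG00000064373, chromosome 15, 3268547 to 3280508), which encodes selenoprotein P, a secreted carrier of selenium. It stood at 13.94, 14.1 and 14.52 in T-PNU samples and 12.52, 12.74 and 13.78 in T-DM1 samples (log2 difference 1.27, SE 0.19, limma adjusted p = 0.00143). No value overlapped, and the untreated and trastuzumab medians, 13.38 and 13.8, lay between those of the conjugates. Ccl8, a chemokine for monocytes and other leukocytes, followed at 13.52, 13.83 and 14.17 against 12.26, 12.6 and 13.15 (log2 difference 1.23, SE 0.15, limma adjusted p = 0.000633). Hpgds, the prostaglandin D synthase of hematopoietic cells, measured 10.18, 10.64 and 11.04 with T-PNU and 9.21, 9.42 and 9.73 with T-DM1 (log2 difference 1.16, SE 0.13, limma adjusted p = 0.000452). The T-DM1 values of Hpgds were the low ones, with medians of 10.5 in untreated and 10.52 in trastuzumab samples close to that of T-PNU. The other higher genes of this kind were Nxpe5 (1.13), Aoah (1.1), which encodes an enzyme that inactivates bacterial lipopolysaccharide, the scavenger receptor gene Cd36 (1.07), Frmd4b (1.05), the NAD-consuming ectoenzyme gene Cd38 (1.02), the protease inhibitor gene Serpina3f (1.02) and March1 (1.01), a ubiquitin ligase that turns over MHC class II. Of these 10 genes, chosen by the same values, only Cd36 overlapped between the groups, with 5 of 6 T-PNU values above every T-DM1 value.

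The falls were led by Mgp (ENSMUSG00000030218, chromosome 6, 136872435 to 136875823), which encodes matrix Gla protein, an inhibitor of calcification. Mgp stood at 7.13, 8.38 and 8.78 in T-PNU samples against 10.18, 10.4 and 10.72 in T-DM1 samples (log2 difference -2.23, SE 0.23, limma adjusted p = 0.000339). T-DM1 samples were the high ones, as every untreated (8.21, 8.95 and 9.94) and trastuzumab (7.92, 9.36 and 9.88) value also lay below the lowest T-DM1 value. Next came genes of the extracellular matrix, Col6a2 (-1.85), Col6a1 (-1.71), Col5a3 (-1.71), Matn2 (-1.72), which encodes a matrilin, Wisp2 (-1.66), Col1a1 (-1.62) and Cthrc1 (-1.58). The other 4 were the small heat shock protein gene Hspb1 (-1.72), the cytokine gene Il11 (-1.61), the galectin gene Lgals7 (-1.6) and the platelet-derived growth factor receptor gene Pdgfrb (-1.57). The groups did not overlap for any of these 12 genes, which were chosen by the same values.

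Cholesterol is built from acetyl-CoA through mevalonate, farnesyl diphosphate, squalene and lanosterol. The enzymes are switched on together by SREBP2 (gene Srebf2) when sterols in the endoplasmic reticulum run low. LXR receptors act in the opposite direction and induce export of cholesterol when oxysterols are plentiful.

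Of 26 measured genes of cholesterol synthesis and sterol uptake, 22 were lower in T-PNU samples and 0 higher, 84.6% against a background of 17.4% lower over all genes. The median log2 difference was -0.74, beside 0.03 over all genes, and in 17 of the 26, against 7.73% of all genes, no T-PNU value reached the lowest T-DM1 value. Sqle (ENSMUSG00000022351, chromosome 15, 59315077 to 59331192), which encodes squalene epoxidase, a rate-limiting step after squalene, differed most. Its levels were 10.26, 11.28 and 11.67 in T-PNU and 12.12, 12.54 and 12.83 in T-DM1 samples (log2 difference -1.36, SE 0.21, limma adjusted p = 0.00146), while untreated and trastuzumab medians were 12.4 and 12.34. All 6 T-PNU samples were low for this gene, C2 the lowest.

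Upstream in the pathway, Hmgcs1 (ENSMUSG00000093930, chromosome 13, 119690379 to 119708260), the synthase that makes HMG-CoA, measured 11.28, 11.55 and 11.78 against 12.05, 12.41 and 12.68 (log2 difference -0.85, SE 0.11, limma adjusted p = 0.000678). It was low in all 6 T-PNU samples without overlap. Mvd, which makes isopentenyl diphosphate, and the isomerase gene Idi1 had log2 differences of -1.03 (limma adjusted p = 0.000339) and -0.71 (limma adjusted p = 0.00861). Farnesyl diphosphate synthase, Fdps (ENSMUSG00000059743, chromosome 3, 89093588 to 89101959), stood at 6.54, 6.76 and 6.97 against 7.47, 7.88 and 8.09 (log2 difference -1.08, SE 0.11, limma adjusted p = 0.000339). Squalene synthase, Fdft1, differed by -1.12 (limma adjusted p = 0.000633). Neither Fdps nor Fdft1 overlapped between the groups.

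Downstream of squalene, Lss, the cyclase that forms lanosterol, differed by -0.91 (limma adjusted p = 0.000593) and Msmo1 by -1.06 (limma adjusted p = 0.00131). Cyp51 (ENSMUSG00000001467, chromosome 5, 4081145 to 4104746), the lanosterol demethylase, had T-PNU values close to each other, 11.38, 11.46 and 11.51, against 12.04, 12.53 and 12.75 in T-DM1 samples (log2 difference -1.02, SE 0.1, limma adjusted p = 0.000317). Its 6 T-PNU values spanned less than those of any other group, and 1 untreated and 1 trastuzumab sample lay below them. Srebf2 itself differed by -0.77 (limma adjusted p = 0.000492), and Hsd17b7 (-0.76) and Tm7sf2 (-0.24) were among the other lower members. The call of Tm7sf2 was lost in 11 of the 12 fits that left out 1 sample, adjusted p up to 0.112. The 4 members not called were Ebp (0.1), Mvk (-0.13), Scap (-0.16) and Dhcr7 (-0.23).

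**Figure D2:**
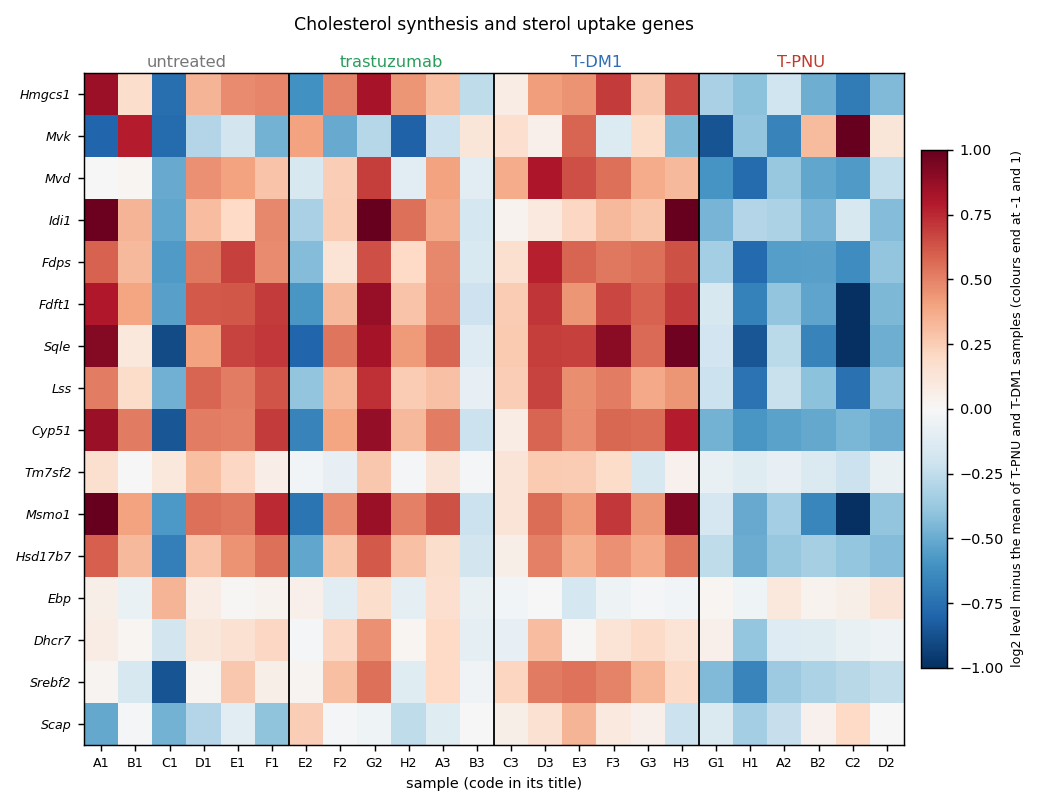
Rows are the sterol genes named in the text and columns the 24 samples by title code, in blocks of 6 per group. Colour gives the log2 level minus the gene's mean over the T-PNU and T-DM1 samples, ending at -1 and 1. Most genes are blue in every T-PNU column and red in most T-DM1 columns, and untreated C1 and trastuzumab E2 are blue as well.

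Sterol genes were low in every T-PNU sample, also in those that stood apart in other genes. As a mean deviation of the 26 genes from their average over the 12 samples, G1 and A2 were at -0.27 and -0.28, and C2, at the other end of the first principal component, was at -0.38. The full T-PNU range was -0.46 to -0.27 and that of T-DM1 0.12 to 0.42. Most untreated and trastuzumab samples lay with T-DM1, but untreated C1 was at -0.47, and trastuzumab E2 and B3 at -0.29 and -0.11.

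Promoter sequences of sterol genes are shown because the members fell together. RefSeq (GRCm38.p6) gave a window of 250 bases before to 50 after the start of transcription for 18 of the 26 genes. The sterol regulatory element TCACNCCAC, searched on both strands, was found in 1 of the 18 (5.56%), Hmgcs1, beside 1.44% of 27025 genes. The CCAAT box, a site of the NF-Y factor that often lies beside sterol elements, was found on either strand in 16 of the 18 (88.9%), beside 41.1% of all genes. A match is a description of letters and not a bound site. The 150 bases before the start site of Hmgcs1 (chr13:119690201-119690350, plus strand) and Cyp51 (chr5:4104698-4104847, minus strand) follow, 5′ to 3′, with these matches in capitals.
Hmgcs1: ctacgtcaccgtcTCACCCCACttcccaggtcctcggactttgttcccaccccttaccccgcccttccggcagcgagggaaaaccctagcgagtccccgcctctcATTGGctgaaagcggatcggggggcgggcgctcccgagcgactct
Cyp51: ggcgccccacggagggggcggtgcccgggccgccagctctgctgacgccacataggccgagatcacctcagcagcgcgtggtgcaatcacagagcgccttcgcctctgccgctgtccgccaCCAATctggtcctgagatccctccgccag
In Hmgcs1 the sterol element starts at position -137 and a CCAAT box, read on the other strand, at -45. In Cyp51 a CCAAT box starts at -29. The groups did not overlap for either gene.

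Of 15 LXR target and cholesterol efflux genes, 7 were higher (46.7%, background 15.4%) and 1, Srebf1, the fatty acid counterpart of Srebf2, was lower (-0.43, limma adjusted p = 0.0146). Abcg1, which exports cholesterol to high-density lipoprotein, stood at 11.94, 12.16 and 12.42 in T-PNU and 11.09, 11.22 and 11.67 in T-DM1 samples (log2 difference 0.87, SE 0.11, limma adjusted p = 0.000633). Abca1, the transporter for lipid-poor apolipoprotein, measured 13.79, 14.09 and 14.36 against 13.03, 13.36 and 13.65 (log2 difference 0.71, SE 0.12, limma adjusted p = 0.00216). In both, every T-PNU value was the higher. Lpl (0.8), Cyp27a1 (0.72), which makes an oxysterol, and Apoe (0.7) were also higher without overlap, while Nr1h3 (0.09, adjusted p = 0.578 by limma) and Nr1h2 (-0.2, adjusted p = 0.345), which encode the LXR receptors, were not called. Macrophage genes, among them Apoe, were higher as well (12 of 25, 48%, background 15.4%), and their part in this result was not tested.

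In fatty acid synthesis and desaturation, 9 of 19 measured genes were lower (47.4%) and 1, Acsl1, higher (0.52, limma adjusted p = 0.00311). Fads2, the delta-6 desaturase, had the largest fall, 7.89, 8.89 and 9.28 in T-PNU against 9.83, 9.99 and 10.26 in T-DM1 samples (log2 difference -1.23, SE 0.2, limma adjusted p = 0.00179). Fads3 (-1.05), the malic enzyme gene Me1 (-0.94), Scd2 (-0.85) and the elongase gene Elovl6 (-0.81) fell as well. Fasn, the fatty acid synthase, had a log2 difference of -0.43 (95% interval -0.78 to -0.08) and Acly -0.05 (-0.23 to 0.13), and neither was called.

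Glycolysis turns glucose into pyruvate and lactate, and its enzymes, together with carbonic anhydrase 9 and VEGF, are induced by HIF-1 under low oxygen. Of 30 such genes, 22 were lower in T-PNU samples (73.3%, background 17.4%) and 3 higher (10%, below the background of 15.4%), with a median of -0.45. Car9 (ENSMUSG00000028463, chromosome 4, 43506966 to 43513729), the carbonic anhydrase, stood at 8.87, 9.95 and 10.35 in T-PNU and 10.7, 10.84 and 11.07 in T-DM1 samples (log2 difference -1.15, SE 0.23, limma adjusted p = 0.00452). C2 and H1 had the low T-PNU values, and even the highest, in G1, lay below every T-DM1 value. Adm, the adrenomedullin gene, differed by -0.81, Vegfa by -0.61, the kinase gene Pdk1 by -0.58 and the glucose transporter gene Slc2a1 by -0.55 on the log2 scale. Among enzymes of the main chain, Pfkl (-0.72), Gapdh (-0.53), Tpi1 (-0.52), Pgam1 (-0.52), Pgk1 (-0.48, lost without F3 or H1, adjusted p up to 0.0616), Eno1 (-0.46), Aldoa (-0.39) and Ldha (-0.32) were called lower. The 3 higher genes were the neuronal-type glucose transporter gene Slc2a3 (0.54, lost in 8 of the 12 fits that left out 1 sample, adjusted p up to 0.0953) and the regulators Pfkfb3 (0.54) and Pfkfb4 (0.25). Hif1a was not called (0.08, 95% interval -0.11 to 0.28).

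By sample, glycolysis genes followed the first principal component more than sterol genes did, with mean deviations of -0.43 in H1 and -0.43 in C2 against 0.01 in G1 and 0.07 in A2. T-DM1 samples lay at 0.07 to 0.31. The hypoxia core ACGTG occurred in the promoter window of 19 of 27 members (70.4%, against 21.8% of all genes) and GCGTG in 17 (63%, against 35.2%), searched on both strands. As an example, the first start site of Ldha (chr7:46845654-46845803, plus strand) holds several ACGTG matches, some of them overlapping on opposite strands and shown in capitals in the 150 bases before it.
Ldha: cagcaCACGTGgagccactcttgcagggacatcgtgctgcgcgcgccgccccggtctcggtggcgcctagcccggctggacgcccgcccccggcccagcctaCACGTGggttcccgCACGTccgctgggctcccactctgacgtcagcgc
Ldha itself measured 15.29, 15.69 and 15.83 in T-PNU and 15.89, 15.97 and 16.08 in T-DM1 samples (log2 difference -0.32, SE 0.09, limma adjusted p = 0.0192), a small fall without overlap.

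Oxidative phosphorylation genes had smaller falls. Of 31 genes of the respiratory chain and ATP synthase, 12 were lower (38.7%) and 0 higher, the median was -0.17, and the largest fall was Atp5d at -0.38 (limma adjusted p = 0.0247), lost without D3, F3 or H1, adjusted p up to 0.0544. The 12 calls became 6 without F3 or H1 and 7 without G3.

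**Figure D3:**
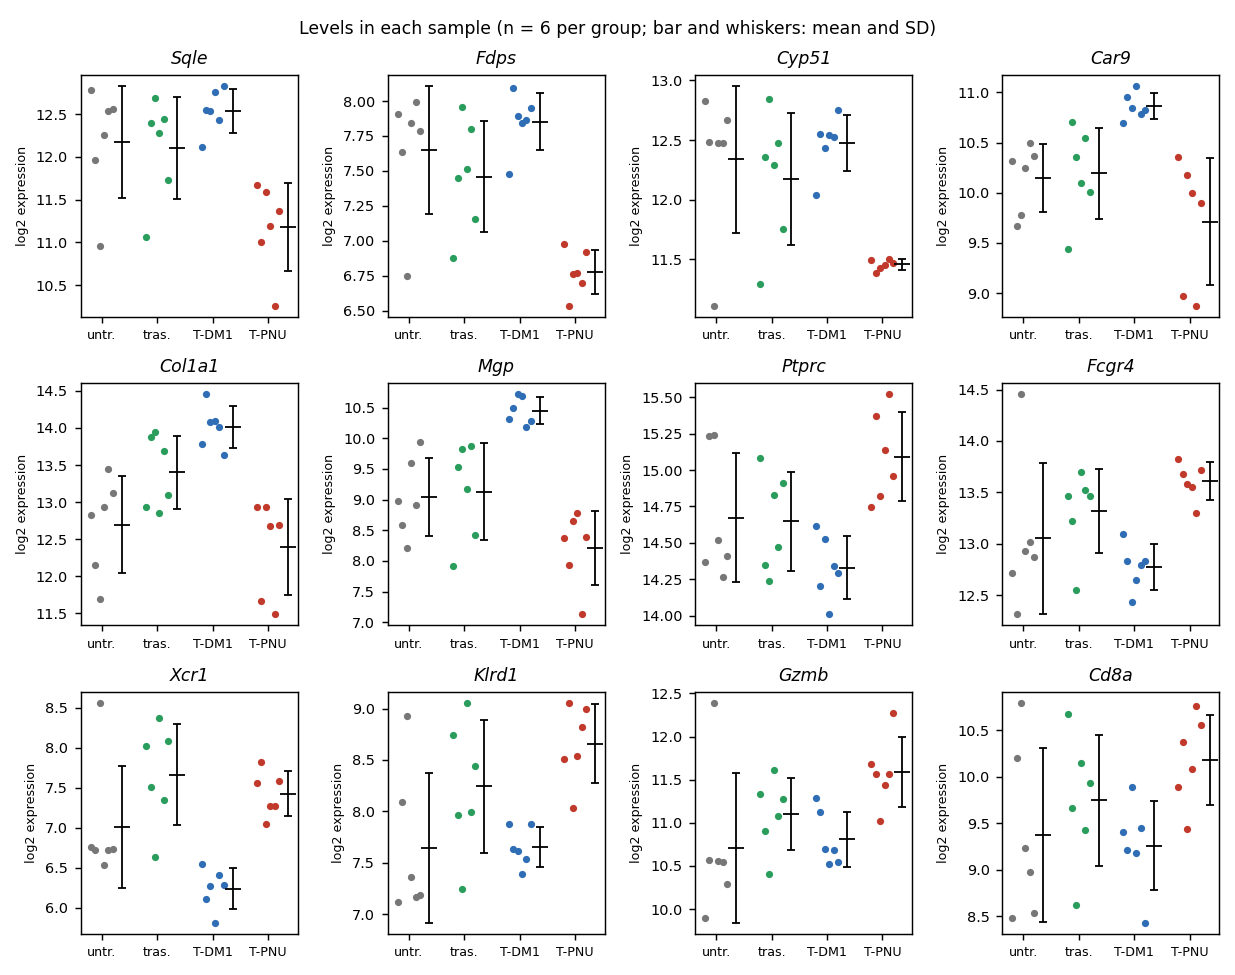
Levels of 12 genes (log2 normalised expression, y axes with different ranges that do not start at 0) in each of the 24 samples, coloured by group, with the mean and SD of 6 samples. Sqle, Fdps, Cyp51, Car9, Col1a1 and Mgp are lower and Ptprc, Fcgr4, Xcr1 and Klrd1 higher in every T-PNU sample than in every T-DM1 sample, while Gzmb and Cd8a overlap.

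Levels of genes shared by all leukocytes also differed between the conjugates, and their part in the other results was not tested. Of 12 genes that all leukocytes use, 10 were higher in T-PNU samples (83.3%, background 15.4%) and 0 lower, with a median of 0.41. Ptprc (ENSMUSG00000026395, chromosome 1, 138062861 to 138175708), which encodes the CD45 protein that the beads bind, stood at 14.75, 15.05 and 15.52 against 14.01, 14.31 and 14.61 (log2 difference 0.76, SE 0.14, limma adjusted p = 0.00333). All 6 T-PNU values exceeded all T-DM1 values, and untreated and trastuzumab medians were 14.46 and 14.65. The summed level of the list was 17.6 to 18 with T-PNU and 17.2 to 17.5 with T-DM1. In bulk samples, fewer cells of a type and less RNA per cell cannot be told apart.

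Taking each value relative to the sample's mean over these 12 genes, a scaling chosen after the data were seen, shifted every T-PNU minus T-DM1 difference by -0.48, and the median of all genes from 0.03 to -0.45. Calls then became 99 higher (0.582%) and 11558 lower (68%), so that higher genes made up 0.849% of calls instead of 47.0%. Each list's median moved by that same amount by construction. On this scale the highest medians were 0.44 for T cell, 0.43 for B cell, 0.24 for naive lymphocyte, 0.22 for cytotoxic and 0.2 for natural killer cell genes, and interferon-gamma genes stood at 0.1. Every list with a median under 0.48 on the deposited scale had a negative one here, among them Fc receptor (-0.05), type 1 dendritic cell (-0.04), macrophage (-0.14) and LXR target genes (-0.2). No list had more than 2 members called higher. Called lower were 26 of 26 sterol, 27 of 30 glycolysis and 27 of 30 collagen genes.

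Collagens and other matrix proteins are made by fibroblasts and by mesenchymal-type tumor cells rather than by leukocytes. Of 30 collagen and matrix genes, 21 were lower in T-PNU samples (70%) and 0 higher, and the median of -1.01 was the lowest of the 44 lists. Col1a1 (ENSMUSG00000001506, chromosome 11, 94936224 to 94953042) stood at 11.49, 12.68 and 12.93 with T-PNU and 13.64, 14.05 and 14.46 with T-DM1 (log2 difference -1.62, SE 0.25, limma adjusted p = 0.00162). Untreated samples were at 11.7, 12.88 and 13.45 and trastuzumab samples at 12.85, 13.39 and 13.95, so that T-DM1 samples were the highest and overlapped with trastuzumab only. Col3a1 (-1.38), Col5a1 (-1.46), the crosslinking enzyme gene Lox (-1.32), the collagen chaperone gene Serpinh1 (-1.39) and Sparc (-0.99) fell as well. The basement membrane chains Col4a1 and Col4a2 had differences of 0.39 and 0.36 and Lum 0.02, and none of these was called. Among T-PNU samples the mean deviation of the list ranged widely, from -1.21 in C2 to 0.06 in G1, against 0.32 to 0.65 in T-DM1 samples.

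Of 20 matrix protease and inhibitor genes 11 were lower (55%, background 17.4%) and 2 higher (10%, below the background of 15.4%). Only 1 was higher without E3, F3, G3, A2, B2 or D2 and with all 24 samples in the fit. Mmp3, stromelysin 1, stood at 7.63, 9.05 and 9.56 against 9.91, 10.07 and 10.69 (log2 difference -1.28, SE 0.28, limma adjusted p = 0.00568), low in every T-PNU sample. The gelatinase gene Mmp2 differed by -1.2 (limma adjusted p = 0.00349), and Timp3, an inhibitor of these enzymes, rose by 0.86 (limma adjusted p = 0.0113). Of 17 fibroblast and pericyte genes, 7 were lower (41.2%, background 17.4%) and 3 higher (17.6%, near the background of 15.4%). Pdgfrb, a receptor of mesenchymal cells, measured 9.02, 10.44 and 10.63 against 11.42, 11.75 and 11.9 (log2 difference -1.57, SE 0.25, limma adjusted p = 0.00179), and Pdgfra (-1.21), Twist1 (-1.1) and Acta2 (-1.06) fell with it, all 4 without overlap. The higher genes were the stromal chemokine gene Cxcl12 (0.83, limma adjusted p = 0.0256), Thy1 and Tagln. Cxcl12 lost the call in 5 of the 12 fits that left out 1 sample (adjusted p up to 0.0608) and Thy1 in 7. Tagln kept it in all 12 and alone remained without F3, H1 or D2.

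Genes of tumor and epithelial cells were called in both directions. Of 26 measured, 11 were lower (42.3%, background 17.4%) and 5 higher (19.2%, near the background of 15.4%). With sample weights 8 genes were higher. Wnt7b stood at 7.37, 8.34 and 9.36 with T-PNU and 9.52, 9.81 and 10.11 with T-DM1 (log2 difference -1.49, SE 0.29, limma adjusted p = 0.00378), the largest fall of the list, and mouse Erbb2 at 7.84, 9.0 and 9.47 against 9.55, 9.78 and 10.11 (log2 difference -0.98, SE 0.25, limma adjusted p = 0.0116). Both were low in every T-PNU sample. The human receptor is not among the mouse genes measured, and whether its reads count toward Erbb2 was not tested. Egfr (-0.94) and Krt8 (-0.96) fell too. In contrast, the basal keratin gene Krt5 lay at 3.76, 4.96 and 6.15 against 3.26, 3.53 and 3.79 (log2 difference 1.48, SE 0.33, limma adjusted p = 0.00694), from low levels in both groups and with overlap, and Krt14 (1.01), Epcam (0.84), which encodes an epithelial adhesion molecule, and Erbb3 (0.8) were higher.

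Of 18 endothelial genes, 13 were higher (72.2%) and 0 lower, with a median of 0.58. Pecam1, the CD31 adhesion molecule shared with some leukocytes, stood at 11.46, 11.81 and 12.15 against 10.88, 11.07 and 11.35 (log2 difference 0.72, SE 0.12, limma adjusted p = 0.00213). Tek, the angiopoietin receptor, differed by 1.02 (limma adjusted p = 0.00753) and Vwf, von Willebrand factor, by 0.85 (limma adjusted p = 0.00196). None of the 3 overlapped. Adipose and muscle genes, 8 measured of 13, gave 1 higher gene, Fabp4 (1.02), and 1 lower, Plin4 (-0.81), each 12.5% and below the background. Of 6 measured red blood cell and platelet genes 2, Itga2b and Gp1bb, were lower (33.3%, background 17.4%) and 0 higher.

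Genes of the IL-6 family and TGF-beta pathway were also called in both directions. Of 25 genes, 10 were lower (40%, background 17.4%) and 4 higher (16%, near the background of 15.4%). Il11, a cytokine often made by stromal and tumor cells, measured 8.63, 10.02 and 10.46 in T-PNU and 11, 11.4 and 11.87 in T-DM1 samples (log2 difference -1.61, SE 0.28, limma adjusted p = 0.0026), and Lif differed by -1.3 (limma adjusted p = 0.00436). Neither overlapped. Tgfb2 (-0.95), the TGF-beta binding protein genes Ltbp1 (-0.8, lost without D3, F3 or H1, adjusted p up to 0.0666) and Ltbp2 (-1.12), and Bmp1 (-1.04) fell, while the receptors Tgfbr1 (0.6), Tgfbr2 (0.34) and Il6ra (0.45) rose. Tgfb1 and Il6 were not called, at 0.07 (95% interval -0.15 to 0.3) and -0.04 (-0.52 to 0.44).

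Natural killer cells kill without prior priming and carry receptors of the Klr family, and trastuzumab can arm them and macrophages through Fc gamma receptors. Of 17 measured natural killer cell genes, 16 were higher in T-PNU samples (94.1%, background 15.4%) and 0 lower, with a median of 0.67. The 16 calls became 13 without F3, 14 by quantile normalization and 11 with all 24 samples in the fit. Klrd1 (ENSMUSG00000030165, chromosome 6, 129591782 to 129598775), the CD94 receptor chain, stood at 8.03, 8.68 and 9.06 against 7.38, 7.62 and 7.88 (log2 difference 1.01, SE 0.16, limma adjusted p = 0.00185). Ncr1, the NKp46 receptor that marks the lineage, stood at 7.03, 7.24 and 7.85 against 6.31, 6.64 and 7.05 (log2 difference 0.71, SE 0.17, limma adjusted p = 0.00806). Klrd1 separated the groups, and Ncr1 overlapped. Klrb1c (0.84), Klrk1 (0.55) and Sh2d1b1 (0.67) rose without overlap. The other 11 higher members ranged from Klra9 (0.28) to Klra3 (0.85), and Klra1 (0.25) was not called. The call of Klra9 was lost in 7 of the 12 fits that left out 1 sample, adjusted p up to 0.0846. The Klra and Klrc genes are near copies of each other, so how reads were split among them is uncertain.

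Granule and effector genes of cytotoxic cells rose in 14 of 20 cases (70%) and fell in 1. Gzmb, granzyme B, stood at 11.02, 11.57 and 12.27 with T-PNU and 10.52, 10.69 and 11.28 with T-DM1 (log2 difference 0.78, SE 0.19, limma adjusted p = 0.00892). Prf1, the pore-forming perforin, measured 8.75, 9.24 and 9.82 against 8.03, 8.53 and 9.08 (log2 difference 0.72, SE 0.19, limma adjusted p = 0.0141), and Ifng, interferon gamma, 6.27, 7.15 and 7.36 against 5.78, 6.17 and 6.48 (log2 difference 0.86, SE 0.19, limma adjusted p = 0.00664). The groups overlapped for all 3, with T-PNU samples at the upper end, and with all 24 samples in the fit Prf1 and Ifng were not called (limma adjusted p = 0.0722 and 0.0802). The largest difference was in Nkg7, a granule membrane protein (0.9, limma adjusted p = 0.00483), and Gzmm was the member that fell (-0.33, limma adjusted p = 0.0376), lost in 7 of the 12 fits that left out 1 sample, adjusted p up to 0.0905. Granzymes C to G are encoded by similar neighbouring genes, and their split is uncertain too.

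Fc gamma receptor and antibody effector genes had 14 of 16 members higher (87.5%) and 0 lower. Fcgr4 (ENSMUSG00000059089, chromosome 1, 171018920 to 171029761), the activating receptor of macrophages and neutrophils for mouse IgG2 and a receptor for human IgG1, stood at 13.29, 13.63 and 13.83 against 12.43, 12.81 and 13.1 (log2 difference 0.84, SE 0.11, limma adjusted p = 0.000794). Every T-PNU value was above every T-DM1 value, with untreated samples at 12.31, 12.9 and 14.46 and trastuzumab samples at 12.55, 13.46 and 13.7. C1qa, C1qb and C1qc, the chains of complement C1q, rose by 0.72, 0.83 and 0.74 without overlap. Fcgr3 (0.58), Fcgr1 (0.43, lost without F3 or G3, adjusted p up to 0.0583) and the inhibitory receptor gene Fcgr2b (0.39, lost in 9 of the 12 fits that left out 1 sample, adjusted p up to 0.0895) were called higher. The other 7 higher members ranged from Itgb2 (0.32) to C3ar1 (0.67), and C5ar1 (0.34) and the complement C3 gene were not called. With all 24 samples in the fit 7 of these 14 genes were called.

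Macrophage genes were higher in 12 of 25 cases (48%) and lower in 0. Adgre1, which encodes the F4/80 antigen, measured 13.41, 13.94 and 14.04 against 12.44, 13.02 and 13.38 (log2 difference 0.86, SE 0.16, limma adjusted p = 0.00323). Mertk, the receptor by which macrophages clear dead cells, stood at 10.47, 10.81 and 10.98 against 9.51, 9.83 and 10.15 (log2 difference 0.93, SE 0.12, limma adjusted p = 0.000741). Both were high in every T-PNU sample. Folr2 (0.82), Maf (0.76) and Mrc1 (0.84) rose, and Spp1 (-0.54, 95% interval -0.96 to -0.11), Arg1 (0.3) and Nos2 (0.31) were not called. Of 18 monocyte genes 5 were higher (27.8%, background 15.4%) and 4 lower (22.2%, near the background of 17.4%). Ccl12 had the largest rise (0.51, limma adjusted p = 0.0209), and the 4 that fell were Fn1 (-1.27), Csf1 (-0.79), Csf2 (-0.7, lost without F3 or B2, adjusted p up to 0.0517) and Vcan (-0.69), genes that stromal or tumor cells also use. The 5 higher calls became 2 or 3 in 9 of the 12 fits that left out 1 sample, F3 and H1 among them, and 0 with all 24 samples in the fit.

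Of 23 measured neutrophil genes 4 were higher (17.4%, near the 15.4% of all genes) and 2 lower (8.7%, below the 17.4% of all genes). Ly6g, the marker of mature neutrophils, lay at 4.25, 4.44 and 5.31 against 3.99, 4.14 and 4.21 (log2 difference 0.44, SE 0.15, limma adjusted p = 0.0413), a small rise without overlap that was lost in 7 of the 12 fits that left out 1 sample, adjusted p up to 0.0782. The 4 higher calls became 2 without E3, F3, G3 or D2 and 7 without H3, and the 2 lower calls 1 without C3, F3, H3, H1 or C2. The chemokine gene Cxcl5 fell (-0.85, limma adjusted p = 0.019) and Retnlg rose (0.84, limma adjusted p = 0.0162). In mast cell, basophil and eosinophil genes, 9 of 16 measured were higher (56.2%) and 1, the transcription factor gene Gata2, lower (-0.81, limma adjusted p = 0.00343). Alox15, a lipoxygenase of eosinophils and some macrophages, stood at 6.08, 6.44 and 7.25 against 5.2, 5.45 and 5.57 (log2 difference 1.18, SE 0.19, limma adjusted p = 0.00165), and Ccr3, the eotaxin receptor, at 7.53, 7.74 and 8.52 against 6.02, 6.76 and 7.47 (log2 difference 1.05, SE 0.23, limma adjusted p = 0.00578). Neither overlapped.

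Dendritic cells of type 1 take up dying cells and present their antigens to CD8 T cells. Of 15 genes of this cell, 10 were higher in T-PNU samples (66.7%) and 0 lower. Xcr1 (ENSMUSG00000060509, chromosome 9, 123852315 to 123862029), its chemokine receptor, stood at 7.04, 7.42 and 7.83 against 5.81, 6.28 and 6.54 (log2 difference 1.19, SE 0.15, limma adjusted p = 0.000633). The T-DM1 samples were low, with no overlap, while the untreated median was 6.73 and that of trastuzumab, 7.76, exceeded the T-PNU median. Clec9a, the receptor for exposed actin of dead cells, differed by 0.83 (limma adjusted p = 0.00381) and Batf3, a transcription factor that the cell needs, by 0.44 (limma adjusted p = 0.00751). Fitted over all 24 samples, 6 members were called. Of 17 genes of mature, migrating dendritic cells, 2 were higher (11.8%, below the background of 15.4%) and 4 lower (23.5%, background 17.4%). Ccr7 was at 0.63 (limma adjusted p = 0.368) and Fscn1, fascin, at -1.13 (limma adjusted p = 0.00367). The 4 lower calls became 2 without C3, E3, H3 or B2, and the 2 higher calls 1 without D3, F3 or H1. The difference between these lists was not tested. Plasmacytoid dendritic cell genes gave 2 higher, Ccr9 (0.73) and Siglech (0.68, lost in 4 of the 12 fits that left out 1 sample, adjusted p up to 0.0582), and 1 lower, Runx2 (-0.31, lost in 6 of the 12 fits that left out 1 sample, adjusted p up to 0.0753), of 11. These shares were 18.2% higher, near the background of 15.4%, and 9.09% lower, below that of 17.4%.

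MHC class II presentation rose in 9 of 16 genes (56.2%), with Ciita, the master regulator, at 0.68 (limma adjusted p = 0.0368) (lost in 6 of the 12 fits that left out 1 sample, adjusted p up to 0.0856), Cd74 at 0.59 (limma adjusted p = 0.00914) and H2-Aa at 0.67 (limma adjusted p = 0.00739). The 9 calls became 5 without F3, H1, B2 or D2, and 5 with all 24 samples in the fit. Of 19 measured MHC class I genes 1, the transactivator gene Nlrc5, was higher (0.39, limma adjusted p = 0.0282, lost in 5 of the 12 fits that left out 1 sample, adjusted p up to 0.0679) and 0 were lower, a share of 5.26% below the 15.4% of all genes. B2m had a difference of 0.12 (95% interval -0.06 to 0.3) and Tap1 of 0.18 (-0.04 to 0.4).

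Interferon gamma, made by natural killer and T cells, acts on gamma-activated sites and induces IRF1, and type I interferons act on interferon-stimulated response elements. Of 22 interferon-gamma GTPase and regulator genes, 16 were higher in T-PNU samples (72.7%) and 0 lower, with a median of 0.58. Of 32 type I interferon-stimulated genes, 5 were higher (15.6%, near the background of 15.4%) and 0 lower, with a median of 0.26. The 5 became 1 with all 24 samples in the fit, 9 without H3 and 2 or 3 without any of 8 other samples, F3 and H1 among them. The difference between the lists was not tested, and interferon responses share many genes.

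Irf1 (ENSMUSG00000018899, chromosome 11, 53770014 to 53778374), a transcription factor induced by interferon gamma, stood at 14.81, 14.99 and 15.13 in T-PNU and 14.09, 14.4 and 14.61 in T-DM1 samples (log2 difference 0.63, SE 0.1, limma adjusted p = 0.00175). Irgm1, an immunity GTPase, measured 14.13, 14.38 and 14.68 against 13.55, 13.86 and 14.03 (log2 difference 0.58, SE 0.12, limma adjusted p = 0.00474). Neither overlapped. Igtp, another such GTPase, stood at 13.21, 13.81 and 14.01 against 12.78, 13.21 and 13.39 (log2 difference 0.64, SE 0.14, limma adjusted p = 0.0071), with overlap. Gbp6 (0.81), Gbp10 (0.71), Iigp1 (0.68) and Gbp4 (0.64) were higher as well, and Gbp2 (-0.00076), Gbp3 (0.28) and Socs1 (0.07) were not called. With all 24 samples in the fit 9 of the 22 were called, Igtp not among them (adjusted p = 0.0727). Gbp4, Gbp6, Gbp8 and Gbp10 are close paralogs, as are Tgtp1 and Tgtp2, and their counts may be split in error. Among type I genes Ifit1 (0.32), Mx1 (0.38) and Isg15 (-0.01, 95% interval -0.31 to 0.28) were not called.

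Promoters of interferon-gamma genes are shown because most members of that list were higher, and type I genes were counted beside them. The response element (GAAA, any 2 bases, GAAA) was present in 10 of 15 interferon-gamma genes with a RefSeq window (66.7%) and 13 of 23 type I genes (56.5%), beside 3.99% of all genes. The gamma-activated site TTCNNNGAA was present in 9 of the 15 (60%) and 5 of the 23 (21.7%), beside 9.55% of all genes. Both were searched on both strands, and the genes with a response element include Gbp2, Gbp3 and Socs1, which were not called. The 150 bases before the start of Igtp (chr11:58199406-58199555, plus strand), Irgm1 (chr11:48871421-48871570, minus strand) and the first start of Irf1 (chr11:53769864-53770013, plus strand) carry the matches in capitals.
Igtp: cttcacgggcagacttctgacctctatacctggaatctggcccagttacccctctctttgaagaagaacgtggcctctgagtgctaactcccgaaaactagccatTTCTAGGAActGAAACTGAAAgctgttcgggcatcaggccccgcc
Irgm1: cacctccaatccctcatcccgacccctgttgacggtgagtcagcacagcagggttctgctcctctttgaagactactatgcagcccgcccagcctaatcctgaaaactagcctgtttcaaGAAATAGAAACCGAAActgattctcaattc
Irf1: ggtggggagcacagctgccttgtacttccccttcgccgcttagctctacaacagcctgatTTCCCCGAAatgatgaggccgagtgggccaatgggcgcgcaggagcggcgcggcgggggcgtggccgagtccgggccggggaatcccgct
Igtp holds a gamma-activated site at -45 and a response element at -34. Irgm1 holds overlapping response elements at -30 and -24, and Irf1 a gamma-activated site at -90. All 3 genes were higher in T-PNU samples.

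T cell genes had the highest median of the 44 lists, 0.92, yet only 7 of 26 were called (26.9%, background 15.4%), and samples within each group differed widely, with a median SD of 0.92 in T-PNU and 0.91 in T-DM1 samples. Cd8a, the CD8 coreceptor, stood at 9.44, 10.23 and 10.76 with T-PNU and 8.43, 9.31 and 9.89 with T-DM1 (log2 difference 0.92, SE 0.25, limma adjusted p = 0.0143). Cd4 stood at 9.27, 11 and 12.48 against 8.82, 10.03 and 11.31 (log2 difference 0.87, SE 0.53, limma adjusted p = 0.215, 95% interval -0.27 to 2.01) and Cd3e at 8.47, 9.74 and 10.73 against 7.6, 8.74 and 9.93 (log2 difference 0.75, SE 0.42, limma adjusted p = 0.177, 95% interval -0.15 to 1.66). The groups overlapped for all 3, and the intervals of Cd4 and Cd3e include 0. Cd28 (1.35), Cd96 (1.22), Icos (1.06), Cd3g (1.05), Cd8b1 (0.96) and Thy1 (0.77) passed. Of these, Cd96, Cd3g, Cd8b1 and Thy1 each lost the call without any 1 of D3, F3, H3, H1, B2, C2 or D2, with adjusted p up to 0.0989 for Cd3g, and 3 of the 7 calls then remained. By sample the list ran from -0.78 in G1 and -0.47 in A2 to 1.8 in C2 among T-PNU samples, and from -1.68 to 0.7 among T-DM1 samples. With all 24 samples in the fit, which share 1 estimate of the spread, 1 of the 26 was called, and Cd8a was not (limma adjusted p = 0.0585).

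The B cell lineage list had a median of 0.91, and 2 of 21 genes were called higher (9.52%, below the 15.4% of all genes), Blnk (0.87) and Cd72 (0.51), or 9 without T-PNU sample G1. Of 19 measured immunoglobulin and plasma cell genes 0 were higher and 2 lower (10.5%, below the 17.4% of all genes). The lower genes were Sdc1 (-1.0, limma adjusted p = 0.00168) and Fkbp11 (-0.77, limma adjusted p = 0.00811), both of which other cells also express. Without G1, 3 genes of this list were higher. Naive lymphocyte and lymph node homing genes gave 4 higher of 15 (26.7%), among them Ccr9, Il7r (0.71) and Cd69 (0.67). In this list 2 were lower (13.3%, below the background of 17.4%), Igfbp4 (-0.53) and Actn1 (-0.41, lost without D3, F3 or D2, adjusted p up to 0.0609).

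Checkpoint genes were higher in 10 of 22 cases (45.5%) and lower in 2 (9.09%, below the background of 17.4%). The lower genes were the poliovirus receptor family genes Pvr (-0.4) and Nectin2 (-0.35, lost in 9 of the 12 fits that left out 1 sample, adjusted p up to 0.109). Cd274, the PD-L1 ligand, stood at 14.44, 14.49 and 14.8 against 13.74, 13.91 and 14.39 (log2 difference 0.57, SE 0.12, limma adjusted p = 0.00516). Tigit, which binds those receptors, measured 9.01, 9.4 and 9.62 against 8.15, 8.65 and 8.72 (log2 difference 0.8, SE 0.12, limma adjusted p = 0.00154). Neither overlapped. Ctla4 (0.95, limma adjusted p = 0.028, lost in 7 of the 12 fits that left out 1 sample, adjusted p up to 0.0667) and Pdcd1, the PD-1 receptor (0.64, limma adjusted p = 0.0171), were higher, and Lag3 (0.14, 95% interval -0.18 to 0.47) was not called. In the fit over all 24 samples 5 of the checkpoint genes were called higher. Of 15 regulatory T cell genes 7 were higher (46.7%) and 1 lower, Il1rl1, the IL-33 receptor (-1.18, limma adjusted p = 0.0056). The 7 became 3 without D3, F3, H3, H1, B2, C2 or D2, and 3 with all 24 samples in the fit. Lower genes of the list numbered 2 without G1 or D2 and 3 without A2. Foxp3, which defines the lineage, stood at 7.99, 8.94 and 9.46 against 7.32, 8.18 and 9.03 (log2 difference 0.58, SE 0.29, limma adjusted p = 0.139, 95% interval -0.05 to 1.22), with overlap and no call.

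Genes of the Th1, IL-12 and IL-18 axis were higher in 10 of 22 cases (45.5%) and lower in 0. Il12rb2, the inducible chain of the IL-12 receptor, measured 9.39, 9.95 and 10.06 against 8.51, 8.83 and 9.38 (log2 difference 0.95, SE 0.15, limma adjusted p = 0.00161), with every T-PNU value the higher. Tbx21, the T-bet factor (0.85, limma adjusted p = 0.0062), Il18r1 (0.81, limma adjusted p = 0.0126) and Cxcr3 (0.67, limma adjusted p = 0.0216) rose. Cxcl9, a ligand of CXCR3 induced by interferon gamma, stood at 12.47, 12.83 and 13.37 against 11.9, 12.54 and 12.91 (log2 difference 0.39, SE 0.18, limma adjusted p = 0.111) and was not called, whereas Cxcl10 was (0.37, limma adjusted p = 0.049), lost in 9 of the 12 fits that left out 1 sample, adjusted p up to 0.112. A fit over all 24 samples called 6 of the 22.

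**Figure D4:**
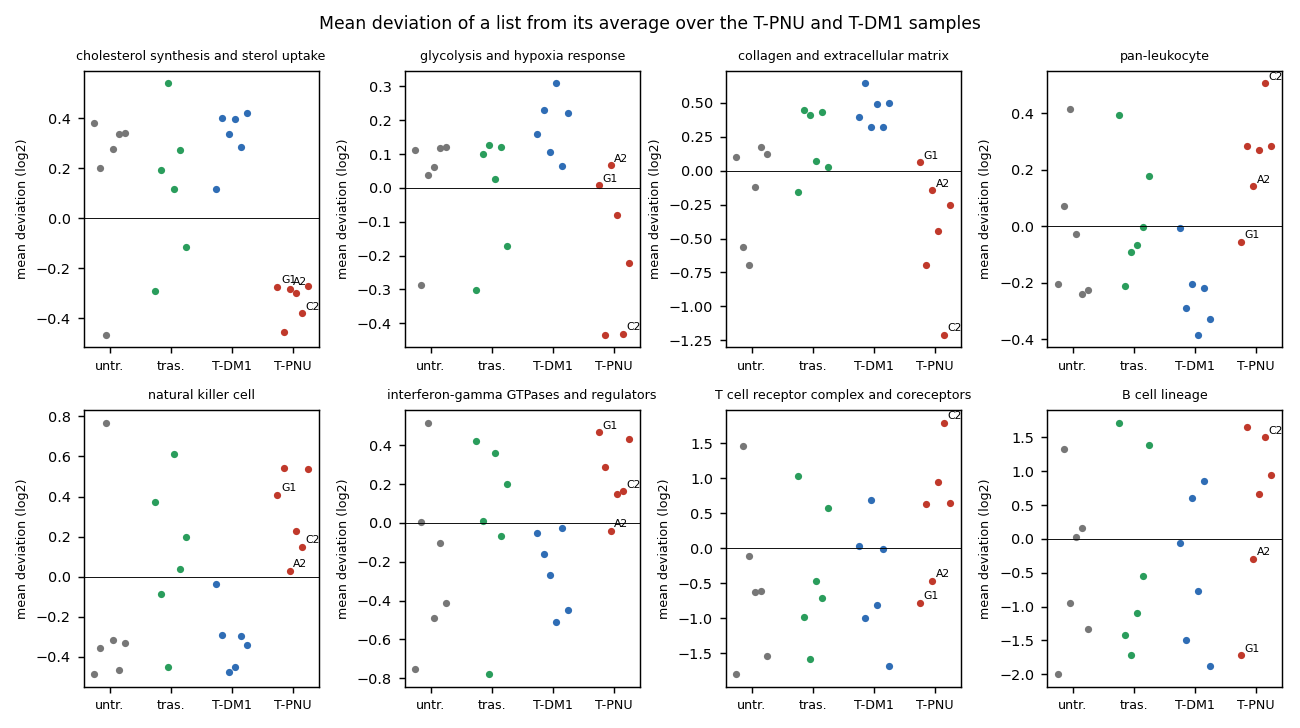
Mean log2 deviation of 8 gene lists from their average over the T-PNU and T-DM1 samples (y axis) in each of the 24 samples, grouped by treatment, with T-PNU samples G1, A2 and C2 marked. Sterol genes lie in a narrow range of -0.46 to -0.27 in all 6 T-PNU samples, whereas T cell genes run from -0.78 to 1.8 and B cell genes from -1.73 to 1.66.

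Genes tied to the payloads' own targets were called in both directions. Of 36 p53 target and DNA damage genes, 8 were higher (22.2%, background 15.4%) and 3 lower (8.33%, background 17.4%), with a median of 0.05. Cdkn1a, the p21 cell cycle inhibitor and a standard p53 target, stood at 14.05, 14.32 and 14.57 with T-PNU and 14.04, 14.37 and 14.48 with T-DM1 (log2 difference 0.01, 95% interval -0.21 to 0.23, limma adjusted p = 0.942). Mdm2, the ligase that degrades p53, stood at 14.24, 14.76 and 14.87 against 14.1, 14.43 and 14.5 (log2 difference 0.31, SE 0.12, limma adjusted p = 0.053, 95% interval 0.06 to 0.56). Neither was called. Trp53inp1 (0.94, limma adjusted p = 0.00406), Sesn1 (0.66, limma adjusted p = 0.0122), the kinase gene Atm (0.6, limma adjusted p = 0.00899) and Pmaip1, which encodes the death protein NOXA (0.6, limma adjusted p = 0.009), were higher, and Gadd45g (-0.79, limma adjusted p = 0.00439) and Epha2 (-0.75, limma adjusted p = 0.0161) lower. Without G1, 5 members were lower.

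Among 23 topoisomerase and strand break repair genes 5 were higher (21.7%, background 15.4%) and 2 lower (8.7%, below the background of 17.4%). Top2a, the topoisomerase of dividing cells that classical anthracyclines trap, measured 12.04, 12.64 and 13.17 against 12.64, 12.79 and 12.93 (log2 difference -0.11, SE 0.15, limma adjusted p = 0.592, 95% interval -0.44 to 0.22), and Top2b 11.66, 12.14 and 12.77 against 11.45, 11.62 and 11.92 (log2 difference 0.51, SE 0.17, limma adjusted p = 0.0393). Both overlapped, and the call of Top2b was lost in 7 of the 12 fits that left out 1 sample, adjusted p up to 0.0921. Prkdc, the kinase of end joining, differed by 0.58 (limma adjusted p = 0.0442), lost in 8 of the 12 fits that left out 1 sample, adjusted p up to 0.1. Xrcc6 differed by -0.31 (limma adjusted p = 0.021) and Tdp1, which clears topoisomerase adducts, by -0.33 (limma adjusted p = 0.0206). Higher calls numbered 1 to 3 without any 1 of 8 samples, F3 and H1 among them.

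Of 23 tubulin and microtubule genes, 7 were lower in T-PNU than in T-DM1 samples (30.4%, background 17.4%) and 2 higher (8.7%), or 1 higher without E3, F3, G3, H1 or B2, with all 24 samples in the fit and by quantile normalization. Tubb5, the main beta tubulin of most cells, stood at 14.2, 14.68 and 14.84 against 15.06, 15.18 and 15.33 (log2 difference -0.61, SE 0.12, limma adjusted p = 0.00393). Tubb2b stood at 8.81, 9.26 and 9.35 against 9.74, 10.13 and 10.29 (log2 difference -0.9, SE 0.11, limma adjusted p = 0.000586). Both were low in every T-PNU sample. Tuba1a (-0.54) and Tubb6 (-0.51) fell too, and Tubb2a (-0.19, 95% interval -0.41 to 0.03) and the neuronal form Tubb3 (-0.22, -0.74 to 0.31) were not called. Tubb2a and Tubb2b are near copies, and so are Tuba1a, Tuba1b and Tuba1c, so their values may share reads.

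In the mitosis and spindle list 3 of 30 were lower (10%, below the 17.4% of all genes), Plk1 (-0.53, limma adjusted p = 0.0428), Cdc20 (-0.49, limma adjusted p = 0.0261) and Cdca8 (-0.41, limma adjusted p = 0.0398), and 0 higher, with a median of -0.3. These calls changed with the samples left out. Without G1 15 genes were lower, without A2 8, and without any 1 of C3, D3, F3, G3, H1, B2 or C2 at most 1. Mki67, a marker of cycling cells, differed by 0.08 (95% interval -0.21 to 0.38). T-PNU samples spread from -0.71 to 0.29 as a mean deviation of this list and T-DM1 samples from -0.06 to 0.28. Of 32 DNA replication genes 7 were lower (21.9%, background 17.4%), with Tyms, thymidylate synthase, at -0.47 (limma adjusted p = 0.0259) (lost without F3, G3 or H1, adjusted p up to 0.0621), and 0 higher. Lower calls numbered 1 to 4 in 8 of the fits that left out 1 sample, F3 and H1 giving 1.

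Drug efflux and payload transport genes had 12 of 17 measured members higher (70.6%) and 1 lower. Abcb1b and Abcb1a, the mouse P-glycoproteins that pump out anthracyclines and maytansinoids, differed by 0.63 (limma adjusted p = 0.00121) and 0.61 (limma adjusted p = 0.0184). Slc46a3, a lysosomal transporter that carries maytansine catabolites of conjugates with non-cleavable linkers, stood at 6.34, 6.93 and 7.21 against 5.75, 6.12 and 6.27 (log2 difference 0.74, SE 0.16, limma adjusted p = 0.00543), without overlap. Abcg2 (0.76), the anthracycline-reducing enzyme gene Cbr1 (0.62), and Ctsb (0.53) and Ctsd (0.37, lost without G3, adjusted p up to 0.0519), which encode lysosomal proteases, rose, and Abcc1 fell (-0.34, limma adjusted p = 0.0418), lost in 9 of the 12 fits that left out 1 sample, adjusted p up to 0.0954. The rise of macrophage genes stands beside this result, and its part in it was not tested.

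Immunogenic cell death is marked by surface calreticulin and release of HMGB1 together with endoplasmic reticulum stress, which are events of protein rather than of RNA. Of 26 genes of this group 3 were higher (11.5%, below the background of 15.4%) and 6 lower (23.1%, background 17.4%), with a median of -0.06. Calr stood at 15.57, 15.77 and 15.81 against 15.64, 15.81 and 15.91 (log2 difference -0.06, SE 0.08, limma adjusted p = 0.561, 95% interval -0.22 to 0.1) and Hmgb1 at 11.56, 11.59 and 11.72 against 11.64, 11.72 and 11.84 (log2 difference -0.12, SE 0.06, limma adjusted p = 0.113, 95% interval -0.24 to 0.0008). Neither was called. Atf3 (0.5), the ATP receptor gene P2rx7 (0.44) and Dnajb9 (0.39, lost in 8 of the 12 fits that left out 1 sample, adjusted p up to 0.0842) rose, and Chac1 (-0.68, limma adjusted p = 0.00685) and Trib3 (-0.54), targets of ATF4, fell without overlap. Without D3, F3, H1, C2 or D2, 2 or 3 of the lower calls remained, and without G1 5 genes were higher. In the BCL2 family 4 of 17 measured were higher (23.5%, background 15.4%), among them Bcl2 (0.55, lost in 9 of the 12 fits that left out 1 sample, adjusted p up to 0.0873) and Bcl2l11 (0.41, lost without F3, G3 or H1, adjusted p up to 0.0566), which encodes BIM, and 3 lower (17.6%, near the background of 17.4%), with Bok at -1.05 (limma adjusted p = 0.00347). Higher calls were 1 or 2 without D3, F3, G3 or H1. Immediate early genes, which respond within minutes to handling of tissue, gave 4 higher (17.4%, near the background of 15.4%) and 7 lower (30.4%, background 17.4%) of 23. Btg2 (0.6, lost in 5 of the 12 fits that left out 1 sample, adjusted p up to 0.0655) rose and Myc (-0.89, limma adjusted p = 0.00106) fell most, and Fos was at -0.0035 (95% interval -0.18 to 0.17). The 4 higher calls became 2 without D3, F3, G3, H1 or B2, and the 7 lower calls 4 without E3 or C2. Whether handling differed between the groups was not tested.

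**Figure D5:**
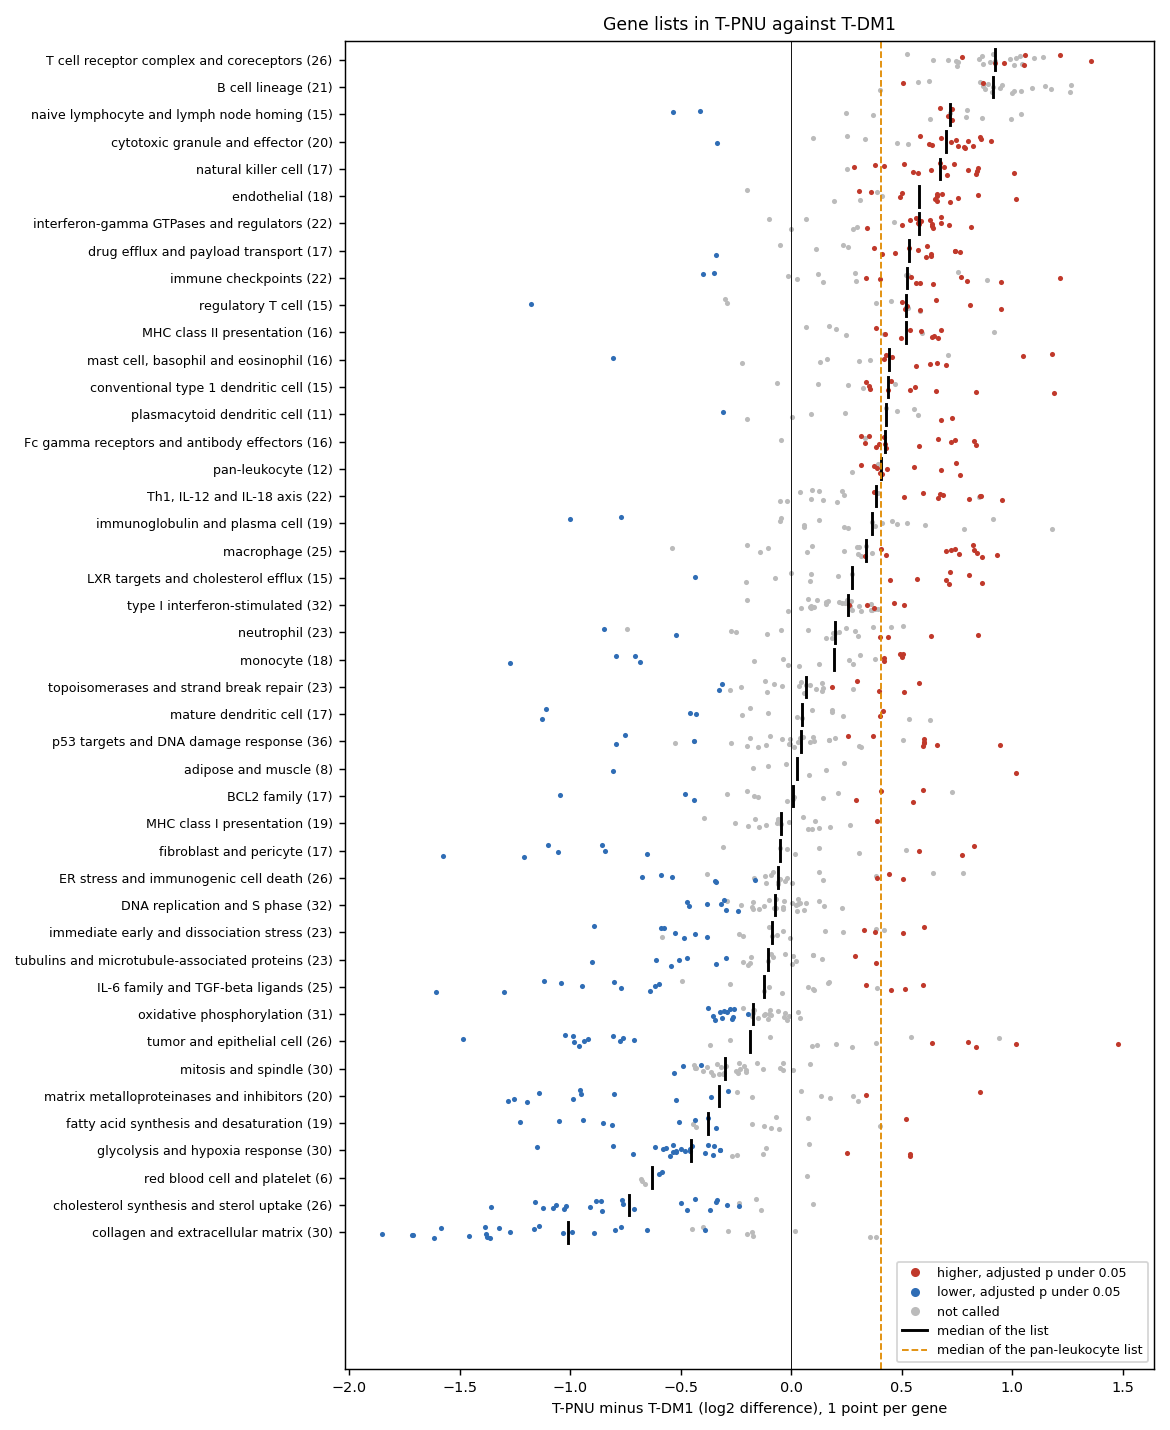
Each row is 1 of the 44 gene lists with its number of measured genes, ordered by median, and each point is 1 gene at its T-PNU minus T-DM1 log2 difference (x axis), red or blue where called higher or lower and grey where not. Black ticks are list medians, which run from -1.01 for collagen and matrix genes to 0.92 for T cell genes, and the dashed line marks the pan-leukocyte median of 0.41.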

How the data were processed

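Per the labels, leukocytes enriched with CD45 beads from 24 tumors, 6 per treatment, were sequenced with a stranded mRNA protocol. According to the submitters' processing notes and the study's methods, reads were aligned to mm10 with STAR, counted with featureCounts and normalised with DESeq2, and genes with low average counts were removed. The authors deposited log2 normalised expression, with the transformation not given in the sources used here. No whole reads could be recovered. Codes in the titles, such as G1, identified the columns, which were mapped to treatments by the labels, and 0 columns were left unmapped.

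From these values, T-PNU was compared with T-DM1 by limma 3.58.1 (R 4.3.3) with a mean-variance trend over the 12 samples (10 residual degrees of freedom) and Benjamini-Hochberg adjustment over 16996 genes, tested on simulated data. Intervals are 95% limits from the same fit, and exact permutation tests over 924 splits (smallest p 0.00216) and the fits named under processing dependence were alternatives. Nothing in the labels says how many experiments the samples come from, and p-values measure only the spread between these samples. Coordinates are from GENCODE M21 (GRCm38), which held 99.6% of the identifiers. The samples, the 44 lists (892 genes, some in several lists) and the rule for naming genes were chosen with earlier results of these data known. The rule named the largest strict changes with a symbol and a level above the median of all genes (12 each way, of which 10 rises existed), each list's extremes, members of lists with 75% called 1 way, and a fixed set of payload and lineage genes. Of 265 genes named, 126 lie outside it and were chosen after their values were seen. Some genes that the rule names are not reported here. Plots used matplotlib 3.10.9.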

Additional observations from a re-analysis of the deposited data

Results flagged for a closer look

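Among the 265 genes named above, the highest or lowest sample of a group of 6 stood far from the other 5 (a gap beyond the 95% limit of Dixon's test) in 19 of 530 groups, and chance alone flags about 1 in 20. Values are log2 normalised expression, each beside that of the nearest sample. In T-PNU samples, H1 was low for Ldha (15.29, next 15.64) and Tubb2b (8.81, next 9.19) and high for Ly6g (5.31, next 4.52) and Pmaip1 (11.52, next 11.17). A2 was low for Clec9a (6.64, next 7.24) and Igtp (13.21, next 13.78), and C2 was low for Atf3 (13.84, next 14.23). In T-DM1 samples, C3 was low for Hsd17b7 (9.64, next 9.94), Tdp1 (9.21, next 9.38), Tuba1a (12.05, next 12.32) and Tubb2b (9.74, next 10.09). H3 was low for Atp5d (11.66, next 11.98), Lag3 (8.94, next 9.43) and Tigit (8.15, next 8.60) and high for Idi1 (8.09, next 7.23). E3 was low for Col4a1 (9.63, next 10.44) and Ebp (10.33, next 10.45), and G3 was low for Gp1bb (3.31, next 3.77) and high for Gbp2 (15.9, next 15.44).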

How the results depend on the processing

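The 35 strictly higher and 289 strictly lower genes became 10 and 180 among genes above the median level, where fewer genes were tested, 1 and 1362 relative to the pan-leukocyte genes (chosen after seeing the data), and 938 and 1225 without a fold threshold. With sample weights, lowest for T-PNU samples C2 (0.27) and H1 (0.47), 168 genes were strictly lower. Without 1 sample in turn, the strictly higher genes ran from 21 to 52 and the strictly lower from 121 to 441, and the cause was not tested. The 5581 genes at an adjusted p under 0.05 became 3299 above the median level and 11657 relative to the pan-leukocyte genes, and 3739 to 6579 without 1 sample. Of 221 called genes in the text, 36 lost the call in at least 1 fit that left out a sample and 221 kept their sign there. With all 24 samples in the fit 31 lost it, among them Cd28, Cd8a, Prf1, Ifng, Pdcd1, Cxcr3, Gbp4 and Abcb1a, and with quantile normalization 9 did. Sterol, glycolysis and collagen lists had 21, 22 and 21 members lower with all 24 samples and 19, 23 and 21 with quantile normalization. Genes that changed sign by quantile normalization, by sample weights or without 1 sample had not been called. By quantile normalization B2m went to -0.13 and Cdkn1a to -0.0068. Sample weights gave Fos 0.016, Gbp2 0.066 and Isg15 0.014. In the fits without 1 sample Cdkn1a ran from -0.044 to 0.066, Fos ran from -0.048 to 0.044, Gbp2 ran from -0.12 to 0.11, Il6 ran from -0.16 to 0.15, Isg15 ran from -0.081 to 0.044, Lum ran from -0.088 to 0.15, Mvk ran from -0.37 to 0.025, Socs1 ran from -0.015 to 0.15 and Top2a ran from -0.21 to 0.018. The robust prior and 20-sample fits moved no count of strict calls by over 1.5 times. The exact permutation test placed 254 of the 265 genes on the same side of 0.05. Its p was not adjusted over genes, whereas that of limma was, so the measures are unlike. No paired analysis was possible because the labels give each sample a code of its own and give treatments no shared replicate numbers. Library depth is not known, and since the transformation is not named, differences at low levels cannot be read as folds of reads.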

Other observations

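List levels also differed among the mice that received no conjugate. Given as mean deviations from the average over the T-PNU and T-DM1 samples, untreated C1 stood at -0.47 for sterol genes, -0.69 for collagen genes, 0.42 for pan-leukocyte genes, 0.77 for natural killer cell genes and 0.52 for interferon-gamma genes. Trastuzumab E2 stood at -0.29, -0.16, 0.39, 0.38 and 0.42 in the same order. Untreated B1 was at 0.2 for sterol genes with collagen genes at -0.56 and natural killer cell genes at -0.35. The T-PNU ranges for these lists were -0.46 to -0.27 (sterol), -1.21 to 0.06 (collagen), -0.06 to 0.51 (pan-leukocyte), 0.03 to 0.54 (natural killer cell) and -0.04 to 0.47 (interferon gamma). Untreated C1 lay beyond the T-PNU range for the sterol, natural killer cell and interferon-gamma lists. These samples were picked out after their values were seen, and no test was made.

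Col6a2 and Hspb1 had their highest medians in T-DM1 samples and their lowest in T-PNU samples, with the other two groups between. For Col6a2 the 4 groups stood at 10.24, 11.59 and 11.7 with T-PNU, 12.77, 13.15 and 13.28 with T-DM1, 10.93, 12.29 and 12.58 untreated and 11.44, 12.33 and 12.91 with trastuzumab. For Hspb1 the values were 9.1, 10.17 and 10.37, 11.31, 11.44 and 12.09, 9.76, 10.73 and 11.46 and 10.06, 10.9 and 11.7 in the same order. Among genes that were lower with T-DM1, C1qb stood at 14.65, 14.95 and 15.19, 13.91, 14.08 and 14.43, 13.89, 14.83 and 15.76 and 14.77, 14.98 and 15.18, and Alox15 at 6.08, 6.44 and 7.25, 5.2, 5.45 and 5.57, 5.32, 5.58 and 6.12 and 5.82, 6.28 and 7.13. The T-DM1 against untreated difference was not tested.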
